A study of Mus musculus with 311 samples.

Results

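Acly, Fasn and Pnpla3, 3 genes of fat synthesis in the liver, were chosen by name and read on all 311 arrays of a mouse intercross. They are 3 of 11387 named genes that were measured. Each had 1 probe among 23388, with no missing value, so the agreement between probes of a gene could not be measured. The animals were F2 mice of both sexes, bred from C57BL/6J and C3H/HeJ parents. Both parental strains were ApoE null, so the whole cross lacked ApoE, the apolipoprotein through which remnant particles are taken up by the liver. The mice ate a fat-rich Western diet between 8 and 24 weeks of age. Liver RNA of each animal was labelled with Cy3 and hybridised against a Cy5-labelled pool to which the samples gave equal amounts. All arrays formed 1 group, with 1 array per animal, and no sex, genotype or phenotype was used for a single animal.

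The values are log ratios of an animal to the pool, so 0 is the pool's level. Their base and direction are not given in the sources used here and were inferred from the values as base 10 and animal over pool, so that a difference of 1 would be a 10-fold difference. The evidence for the base was weak: the slope of a gene's mean on its variance, -0.848, lay between the -1.15 that base 10 and the -0.5 that natural logarithms require of such a pool. Every fold below assumes base 10, while r and the order of animals do not depend on it. With natural logarithms the ranges given further on would be 3.07-fold for Acly, 3.24-fold for Fasn and 4.22-fold for Pnpla3. A ratio to a pool of the same livers carries no level of a gene against another gene, and the identity of the tissue could not be checked by the levels of its markers. The arrays were also divided at -0.5 on the probe of Eif2s3y, a Y-linked subunit of the translation factor eIF2. The 155 Eif2s3y-high arrays ranged from -0.219 to 0.527 on that probe, and the 156 Eif2s3y-low arrays from -1.76 to -0.875, with no array between. These sides were defined from the data and are no groups of the labels, so differences of level between them are given as descriptions, with no test. Array medians lay between -0.0218 and 0.0172. Of 48205 pairs of arrays, 124 had a Pearson r under -0.3 over all probes, the lowest -0.432. No array was reversed for this, because the labels state the same dye for every animal and another for the pool. The dyes alone do not say whether the animal or the pool is the numerator.

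Acly, Fasn and Pnpla3 belong to the path by which the liver makes fat from sugar. Acly, ATP citrate lyase, splits citrate in the cytosol into acetyl-CoA and oxaloacetate, Acaca carboxylates acetyl-CoA to malonyl-CoA, and Fasn, fatty acid synthase, joins these units into palmitate. Pnpla3 is a patatin-like protein of the lipid droplet surface, studied for its part in fatty liver, and is not an enzyme of the chain itself. All are known targets of the insulin-responsive transcription factor SREBP-1c, and several are also targets of the sugar-responsive factor ChREBP.

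The promoter windows are shown because the 3 transcripts varied together among the animals, as described further on. Each window holds the 250 bases before the RefSeq transcription start on the mouse build GRCm38.p6, written 5′ to 3′ on the strand of the gene, and capitals mark matches to the motifs searched. All 3 genes were matched by symbol. Fasn lies at chr11:120824548-120824797 on the minus strand, Acly at chr11:100528001-100528250 on the minus strand, and Pnpla3 at chr15:84167566-84167815 on the plus strand.
Acly: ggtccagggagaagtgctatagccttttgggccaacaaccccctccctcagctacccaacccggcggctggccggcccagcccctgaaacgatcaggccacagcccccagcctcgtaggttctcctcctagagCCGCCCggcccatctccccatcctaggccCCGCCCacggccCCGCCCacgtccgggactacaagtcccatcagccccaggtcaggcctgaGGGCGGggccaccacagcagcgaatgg
Fasn: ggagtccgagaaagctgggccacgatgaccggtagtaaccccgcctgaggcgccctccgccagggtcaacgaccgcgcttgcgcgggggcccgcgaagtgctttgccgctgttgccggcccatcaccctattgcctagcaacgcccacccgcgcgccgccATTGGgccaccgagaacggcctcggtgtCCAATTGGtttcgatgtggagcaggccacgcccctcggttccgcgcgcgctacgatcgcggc
Pnpla3: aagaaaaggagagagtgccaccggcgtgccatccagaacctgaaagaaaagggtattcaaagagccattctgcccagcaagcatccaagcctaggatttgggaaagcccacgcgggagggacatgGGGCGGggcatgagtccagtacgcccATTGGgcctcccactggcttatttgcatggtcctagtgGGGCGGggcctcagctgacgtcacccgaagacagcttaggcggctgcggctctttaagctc
The motifs searched on both strands were the sterol response element TCACNCCAC, the E-boxes CACGTG and CATGTG, the CCAAT box CCAAT, the GC box GGGCGG and the TATA box TATAAA. Acly held 4 GC boxes, 3 of them on the reverse strand. Fasn held 3 CCAAT boxes, of which 2 overlap in the palindromic stretch CCAATTGG. Pnpla3 held 1 CCAAT box, on the reverse strand, and 2 GC boxes. None of the 3 windows held the sterol response element, an E-box or the TATA box in these exact letters, which says nothing about the factors. Among 32851 windows of the same length, 33.8% held a CCAAT box and 32.7% a GC box, and among those of 8546 measured genes 35.6% and 50.5%. The sterol response element was in 1.05%, CACGTG in 6.02%, CATGTG in 12.3% and the TATA box in 12.4%. G and C made up 68.8% of the Acly window, 69.2% of the Fasn window and 58.4% of the Pnpla3 window, against a median of 52.4% over all windows.

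Acly ranged from -0.556 to 0.566 over the 311 animals, with a median of -0.0414. The animal with the most Acly transcript thus had 13.2 times the ratio of the animal with the least. Its SD was 0.206 (95% interval 0.191 to 0.220 by redrawing animals, n = 311), 3.09 times the median SD of all genes. Fasn ranged from -0.663 to 0.514 with a median of -0.0467, a 15.0-fold range. Its SD of 0.251 (0.232 to 0.269) was 3.76 times the median SD. Pnpla3 ranged from -0.625 to 0.813 with a median of -0.128, a 27.5-fold range, and its SD of 0.291 (0.265 to 0.313) was 4.36 times the median SD. The interval of Acly lay below those of Fasn and Pnpla3, and those of Fasn and Pnpla3 overlapped narrowly. All 3 transcripts were among the more variable of the liver: 3.50% of genes had a larger SD than Acly, 2.23% a larger SD than Fasn and 1.48% a larger SD than Pnpla3. In whole-liver RNA, fewer cells of a type and less RNA per cell cannot be told apart.

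The sides of the Eif2s3y split differed in which of the 3 genes was higher. Acly had a median of 0.00377 in the Eif2s3y-high animals and of -0.0891 in the Eif2s3y-low animals, which is 1.24-fold. Fasn had medians of 0.00306 and -0.0799, which is 1.21-fold in the same direction. Pnpla3 went the other way, with a median of -0.239 in the Eif2s3y-high animals and 0.00271 in the Eif2s3y-low animals, a 1.75-fold difference. The sides overlapped for all 3 genes: Acly ran from -0.556 to 0.566 in the Eif2s3y-high animals and from -0.440 to 0.495 in the others, Fasn from -0.663 to 0.507 and from -0.623 to 0.514, and Pnpla3 from -0.625 to 0.604 and from -0.524 to 0.813. Of the 155 Eif2s3y-high animals, 130 lay below the Eif2s3y-low median of Pnpla3, against 56 for Fasn and 47 for Acly. Among all 11387 genes the medians of the sides differed by at least 0.2 in 1.57%, and the difference of Pnpla3 was exceeded by 1.12% of genes. The direction was the same in animals with F2 numbers up to 186, the median number, and above 186. There the Eif2s3y-high median minus the Eif2s3y-low median was -0.260 and -0.226 for Pnpla3, 0.0619 and 0.0957 for Fasn, and 0.0919 and 0.103 for Acly. Pnpla3 also varied a little less on the Eif2s3y-high side, with an SD of 0.240 (0.209 to 0.269) against 0.286 (0.252 to 0.312), and these intervals overlap.

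**Figure D1:**
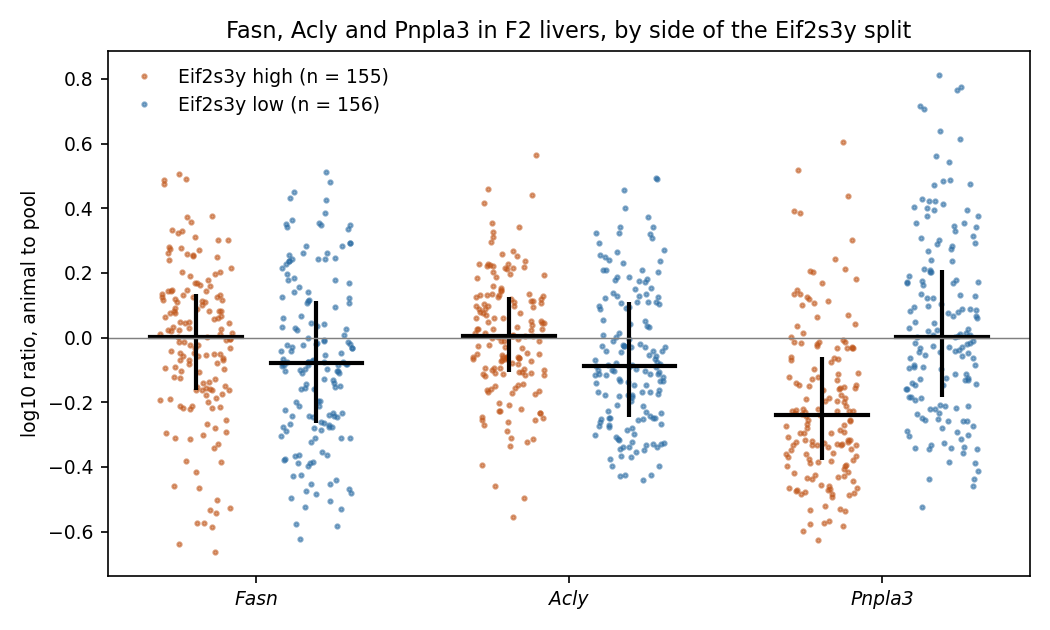
The log10 ratio of each animal to the pool is plotted for Fasn, Acly and Pnpla3, in orange for the 155 Eif2s3y-high and in blue for the 156 Eif2s3y-low animals. Horizontal bars are medians and vertical bars run from the 25th to the 75th percentile; the Pnpla3 median is -0.239 on the Eif2s3y-high side and 0.00271 on the Eif2s3y-low side.

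Of the 13 other measured fatty acid synthesis genes, 8 had the higher median on the Eif2s3y-high side, as Fasn and Acly had, and 5 on the Eif2s3y-low side. The like share of all genes was not counted, so nothing is read from these counts. The Eif2s3y-high median was above the Eif2s3y-low median by 0.0574 for Acaca, by 0.0963 for the elongase Elovl6, by 0.112 for the stearoyl-CoA desaturase Scd1 and by 0.137 for malic enzyme Me1, which supplies NADPH. The direction of Pnpla3 was shared by the desaturase Scd2, with a difference of -0.0873, by Acacb, the acetyl-CoA carboxylase of the mitochondrial surface, with -0.0627, by the desaturase Fads1, with -0.0522, and by Mlxipl and Acss2, with -0.0439 and -0.0311. Of all genes, 3.33% had a larger difference than Me1, 16.3% a larger one than Acaca and 33.9% a larger one than Acss2. Sqle, squalene epoxidase of cholesterol synthesis, went with Fasn, at 0.116.

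Across the animals the 3 transcripts moved together. Fasn and Acly had a Pearson r of 0.861 (95% interval 0.830 to 0.888) and a Spearman rho of 0.862 over 311 animals. Fasn and Pnpla3 had an r of 0.685 (0.621 to 0.740) and a rho of 0.656. Acly and Pnpla3 had an r of 0.649 (0.579 to 0.709) and a rho of 0.602. Each r and rho had a two-sided permutation p of 1e-05, the smallest that 100000 resamples can give, or 1.41e-05 after Benjamini-Hochberg adjustment over 48 relations. Leaving out 2 animals, those most distant from the median of the gene named first, gave values of r of 0.857, 0.680 and 0.636.

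Within each side of the Eif2s3y split the relations with Pnpla3 were closer than over all animals. Fasn and Pnpla3 reached an r of 0.758 (0.682 to 0.818) among the Eif2s3y-high and 0.855 (0.806 to 0.892) among the Eif2s3y-low animals. For Acly and Pnpla3 the values were 0.745 (0.666 to 0.808) and 0.834 (0.779 to 0.876), and for Fasn and Acly 0.804 (0.741 to 0.854) and 0.906 (0.873 to 0.930). The intervals of the sides did not overlap for Fasn and Acly, and r was higher in the Eif2s3y-low animals for all 3 pairs. Each of these permutation p-values was again 1.41e-05 after adjustment. When the sides were also divided at the F2 number 186, the 12 values of r ran from 0.712, for Acly and Pnpla3 in the Eif2s3y-high animals with lower numbers, to 0.922, for Fasn and Acly in the Eif2s3y-low animals with lower numbers.

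**Figure D2:**
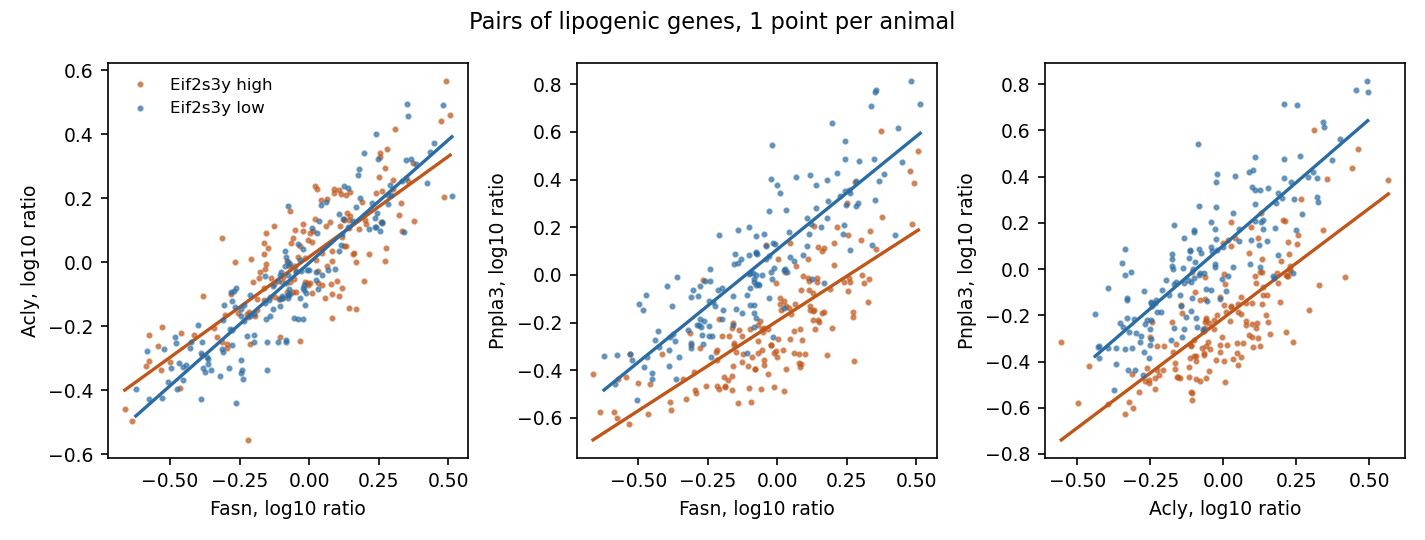
Each point is an animal and each panel a pair of genes, with log10 ratios to the pool on both axes and a least-squares line for each side of the Eif2s3y split. In both panels with Pnpla3 the Eif2s3y-low animals in blue lie above the Eif2s3y-high animals in orange at a like level of the other gene, while the sides overlay each other for Fasn and Acly.

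Counting animals gives the same view. Among the Eif2s3y-low animals, 60 had all 3 transcripts above the median of that side and 60 had all 3 at or below it, which left 36 mixed. Among the Eif2s3y-high animals the counts were 52, 52 and 51. Several animals stood at the ends for more than 1 gene. The animal with F2 number 257 had the lowest Fasn, at -0.663, with -0.460 for Acly and -0.418 for Pnpla3. Animal 256 had -0.638, -0.498 and -0.577 for Fasn, Acly and Pnpla3. At the other end, animal 24 had the highest Pnpla3, at 0.813, with 0.480 for Fasn and 0.492 for Acly, and animal 282 had the highest Acly, at 0.566, with 0.492 for Fasn and 0.385 for Pnpla3. The genes could also part: animal 303, highest for Fasn at 0.514 and high for Pnpla3 at 0.716, stood at 0.208 for Acly, and animal 292, lowest for Acly at -0.556, stood at -0.218 for Fasn.

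Each pair stayed related after the remaining gene was removed by regression. Within the sides, Fasn and Acly less Pnpla3 had a partial r of 0.551 (0.430 to 0.652, Eif2s3y-high) and 0.673 (0.577 to 0.751, Eif2s3y-low). Fasn and Pnpla3 less Acly had 0.40 (0.259 to 0.525) and 0.426 (0.289 to 0.547). For Acly and Pnpla3 less Fasn the partial r was lower, at 0.350 (0.203 to 0.481) and 0.271 (0.119 to 0.411), with adjusted permutation p-values of 2.74e-05 and 0.000882. Of the technical measures, the median of the array was related to Fasn (r = -0.215, rho = -0.211, adjusted permutation p 9.33e-05 and 0.000267; r = -0.205 without the 2 farthest animals). With array medians subtracted, the r of each pair, over all animals and within each side, stayed past the test's threshold with the same sign. For Acly and Pnpla3 the median of the array had adjusted permutation p-values of 0.157 and 0.0913 for r. The spread of the array, its number of missing values and the F2 number had adjusted permutation p-values of at least 0.294 with the 3 genes.

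The transcripts most like Fasn over all animals were mostly enzymes that work beside it. By Pearson r, Acaca led with 0.875, followed by Acly with 0.861, Elovl6 with 0.836 and Me1 with 0.814. The next were the mevalonate decarboxylase Mvd with 0.748, the water channel Aqp8 with 0.746, Scd1 with 0.745 and Dhcr7, the last enzyme of cholesterol synthesis, with 0.734. Insig1, which holds the SREBP precursors in the endoplasmic reticulum, had 0.714, and Mx1, an interferon-induced GTPase, had 0.701. In all, 48 genes reached an r of at least 0.5 with Fasn, which is 0.422% of the 11386 others, and 7 an r of at most -0.5, which is 0.0615%. The median absolute r over all genes was 0.0892.

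Acly had nearly the same company. After Fasn its highest values of r were 0.827 for Acaca, 0.813 for Me1, 0.811 for Elovl6, 0.745 for Dhcr7 and 0.724 for Zc3h12a, a ribonuclease that destroys cytokine mRNAs. Scd1 had 0.721 with Acly, Thrsp, the Spot 14 protein of lipogenic tissues, had 0.718, Insig1 had 0.716 and Mvd had 0.714. An r of at least 0.5 was reached by 44 genes (0.386%) and an r of at most -0.5 by 4 (0.0351%).

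Pnpla3 had a partly different set. Zc3h12a was first with 0.729, ahead of Fasn with 0.685, Insig1 with 0.660, Acly with 0.649, the coiled-coil protein gene Ccdc69 with 0.639, the retinol dehydrogenase Rdh11 with 0.639 and Acaca with 0.629. Fabp5, a fatty acid binding protein, had 0.624, TLCD1 had 0.620 and Rpia, an isomerase of the pentose phosphate path, had 0.613. Scd1 and Me1, high for Fasn, had 0.361 and 0.455 with Pnpla3 over all animals. Within the sides they had 0.427 and 0.531 among the Eif2s3y-high and 0.584 and 0.764 among the Eif2s3y-low animals. An r of at least 0.5 was reached by 36 genes (0.316%) and an r of at most -0.5 by 11 (0.0966%).

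By limma's moderated test of the slope of every gene on each of the 3, at a Benjamini-Hochberg adjusted p under 0.05 over all genes, much of the liver transcriptome was related. Positive slopes were called for 14.6% of genes on Fasn, 9.82% on Acly and 17.7% on Pnpla3. Negative slopes were called for 17.4%, 11.6% and 18.5%. With 311 animals such calls include small relations, so the size of r is given throughout. For the closest genes the slopes on Fasn, in log10 ratio per log10 ratio, were 0.545 (SE 0.0171) for Acaca, 0.708 (0.0237) for Acly, 0.717 (0.0269) for Elovl6 and 0.795 (0.0479) for Pnpla3. The adjusted limma p-values were 4.33e-96 for Acaca, 7.71e-90 for Acly, 2.29e-78 for Elovl6 and 7.81e-42 for Pnpla3.

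The fatty acid synthesis list held 21 genes, of which 16 were measured, the 3 genes among them. The factor gene Srebf1 and the genes Gpam, Elovl5, G6pdx and Pgd were not measured. Over all animals 12 of the other 15 reached an r of at least 0.5 with Fasn and 12 with Acly, but 7 with Pnpla3. Of all genes 0.422%, 0.386% and 0.316% did so. The medians of the list were 0.677, 0.649 and 0.484, beside medians of -0.0167, -0.0117 and 0.00472 over all genes. Slc25a1, the carrier that brings citrate out of the mitochondrion, had an r of 0.678 with Fasn, 0.687 with Acly and 0.311 with Pnpla3. Acss2, which makes acetyl-CoA from acetate, had 0.644, 0.628 and 0.551. Thrsp had 0.677 with Fasn and 0.484 with Pnpla3. Acacb had 0.530, 0.564 and 0.571 with Fasn, Acly and Pnpla3. The desaturases of long-chain polyunsaturated fat, Fads1 and Fads2, had 0.563 and 0.600 with Fasn, 0.527 and 0.608 with Acly, and 0.577 and 0.447 with Pnpla3.

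A few genes of the list stood apart. Mcat, of mitochondrial fatty acid synthesis, had -0.0606 with Fasn, -0.100 with Acly and -0.0621 with Pnpla3. Mlxipl, the gene of ChREBP, had -0.136, -0.0564 and 0.210. Scd2, the desaturase isoform better known from brain, had 0.261 with Fasn, 0.0669 with Acly and 0.295 with Pnpla3, against 0.745, 0.721 and 0.361 for Scd1, the main liver isoform. On the Eif2s3y-low side 12 of the 15 reached 0.5 with each of the 3 genes. There 0.729%, 0.685% and 0.483% of all genes did so with Fasn, Acly and Pnpla3. On the Eif2s3y-high side 11 of the 15 reached 0.5 with Fasn, 11 with Acly and 6 with Pnpla3. Of all genes 0.913%, 0.307% and 0.211% did so on that side.

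**Figure D3:**
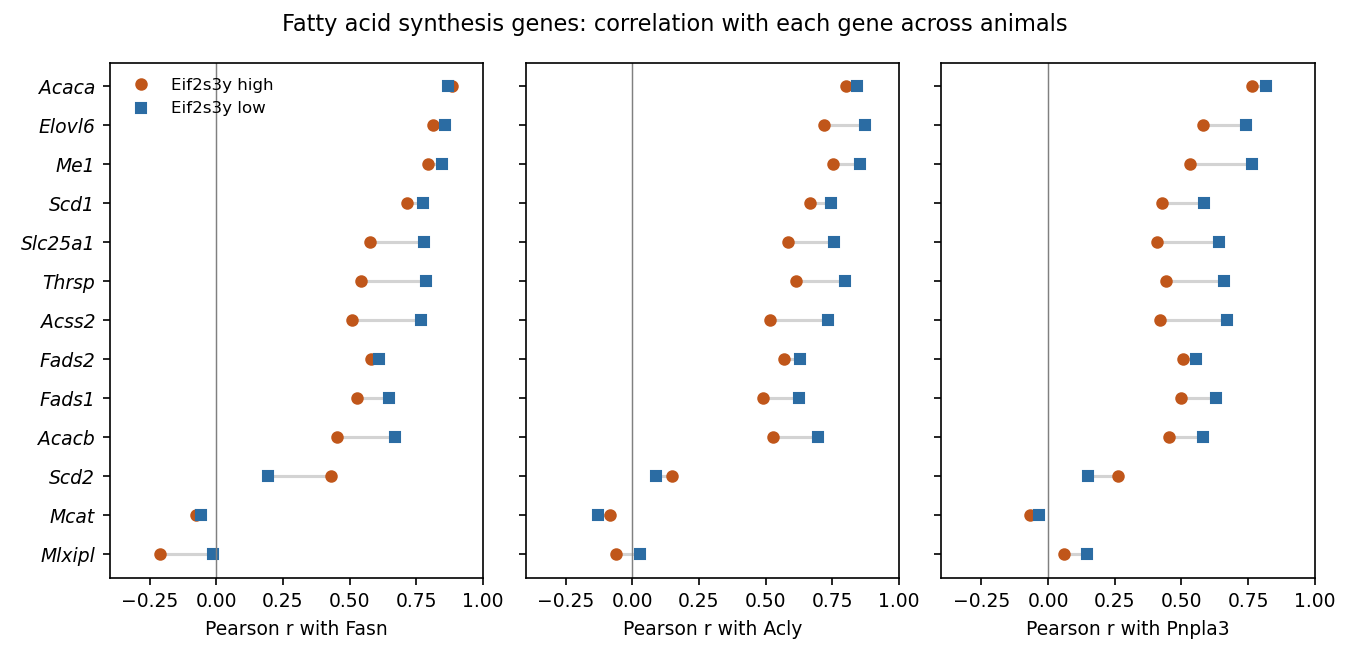
Pearson r of 13 other fatty acid synthesis genes with Fasn, Acly and Pnpla3 is shown in 1 panel each, as an orange circle for the Eif2s3y-high and a blue square for the Eif2s3y-low animals. The first 10 genes lie to the right for all 3, while Scd2, Mcat and Mlxipl lie between -0.209 and 0.429.

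Cholesterol synthesis genes followed the 3 genes to a lesser degree. Of 25 genes 16 were measured, and over all animals all 16 had an r above 0 with each of the 3. Of all 11386 other genes, 5102, 5165 and 5862 had an r above 0 with Fasn, Acly and Pnpla3. Among the Eif2s3y-high animals 15 of the 16 had an r above 0 with Fasn, the lowest being -0.114, as 5449 of all genes had. Over all animals an r of at least 0.5 was reached by 8 with Fasn, 8 with Acly and 6 with Pnpla3. Of all genes 0.422%, 0.386% and 0.316% did so. The medians of the list were 0.517, 0.518 and 0.404. Mvd and Dhcr7 were highest with Fasn, while Mvk, mevalonate kinase, had 0.307 and Ebp, a sterol isomerase, had 0.0601. Sqle had an r of 0.584 (0.506 to 0.653), a rho of 0.572 with Fasn, and 0.564 and 0.448 with Acly and Pnpla3. Its r with Fasn was 0.476 among the Eif2s3y-high and 0.670 among the Eif2s3y-low animals, with an adjusted permutation p of 1.41e-05 for each.

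Genes of sugar handling and of ChREBP were divided. Khk, ketohexokinase, which phosphorylates fructose, had an r of 0.683 with Acly, 0.537 with Fasn and 0.310 with Pnpla3. Tkfc, the triokinase that acts after it, had 0.601, 0.567 and 0.207, and Pklr, liver pyruvate kinase, had 0.514, 0.458 and 0.296. Gpd1, glycerol-3-phosphate dehydrogenase, had -0.0609 with Acly, -0.0499 with Fasn and -0.240 with Pnpla3. Over all animals 3 of 11 measured genes reached 0.5 with Fasn, 3 with Acly and 0 with Pnpla3. Of all genes 0.422%, 0.386% and 0.316% did so, and nothing is read from the count of 0.

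Genes that store or burn fat were read beside the chain. Over all animals 0 of 15 measured genes of triglyceride synthesis and lipid droplets reached 0.5 with any of the 3. Of all genes 0.422%, 0.386% and 0.316% did so, and nothing is read about the list from this count. The medians were 0.198 for Fasn, 0.140 for Acly and 0.0296 for Pnpla3. Abhd5, the activator of adipose triglyceride lipase, had 0.377 with Fasn, and Lpin2, a phosphatidate phosphatase, had 0.297. Of the other patatin-like proteins, Pnpla7 had 0.369 with Fasn, 0.454 with Acly and 0.00165 with Pnpla3 over all animals. Within the sides Pnpla7 had 0.338 and 0.440 with Pnpla3, and Pnpla6 had 0.122 and 0.0182. Among 17 fatty acid oxidation genes 0 reached 0.5 or -0.5 over all animals, with medians of -0.0761, -0.0707 and -0.0507. Of all genes 0.0615%, 0.0351% and 0.0966% had an r of at most -0.5, and nothing is read from this count either. Cpt1a, which controls entry of fatty acids into the mitochondrion, had -0.383 with Fasn, -0.390 with Acly and -0.121 with Pnpla3, and -0.436, -0.425 and -0.334 among the Eif2s3y-low animals. Pck1, of gluconeogenesis, had -0.295, -0.212 and -0.250.

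With Fasn, LXR targets other than Scd1 were spread around 0: Lpcat3, a phospholipid remodelling enzyme, had an r of 0.373, and the sterol exporters Abcg5 and Abcg8 had -0.369 and -0.296. Over all animals 5862 of all 11386 other genes had an r above 0 with Pnpla3. Of the 9 measured LXR targets 7 did so, with a median of 0.203. Within the sides that median was 0.133 (Eif2s3y-high) and -0.0824 (Eif2s3y-low). Over all animals the lists of cell type markers had 0 genes at an r of at least 0.5 or at most -0.5 with the 3 genes. Of all genes 0.422%, 0.386% and 0.316% reached the upper threshold with Fasn, Acly and Pnpla3. The lower was reached by 0.0615%, 0.0351% and 0.0966%, and nothing is read from the count of 0. The medians of these lists over all animals ran from -0.158, for adipocyte genes with Pnpla3, to 0.215, for macrophage and Kupffer cell genes with Pnpla3. All 15 macrophage and Kupffer cell genes had an r above 0 with Pnpla3 over all animals, beside 5862 of all 11386 genes. Their highest value was 0.309. Within the sides the median was 0.12 and -0.0388. With Fasn the highest marker was Fabp4, a fatty acid binding protein of fat cells and macrophages, at 0.450 over all animals. Fabp4 had 0.550 with Fasn among the Eif2s3y-high animals. There 2 of 6 adipocyte genes had an r above 0 with Fasn, beside 5449 of all 11386 genes, and the median of the 6 was -0.0851. Among the Eif2s3y-low animals the highest adipocyte gene had 0.335 with Fasn. With Pnpla3 the highest marker over all animals was a bile duct gene, at 0.455. Within the sides the highest bile duct values with Pnpla3 were 0.0803 (Eif2s3y-high) and 0.335 (Eif2s3y-low). Pancreas and skeletal muscle genes, which reached 10-fold over the pool on 11 arrays, had medians between -0.0343 and 0.0846.

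**Figure D4:**
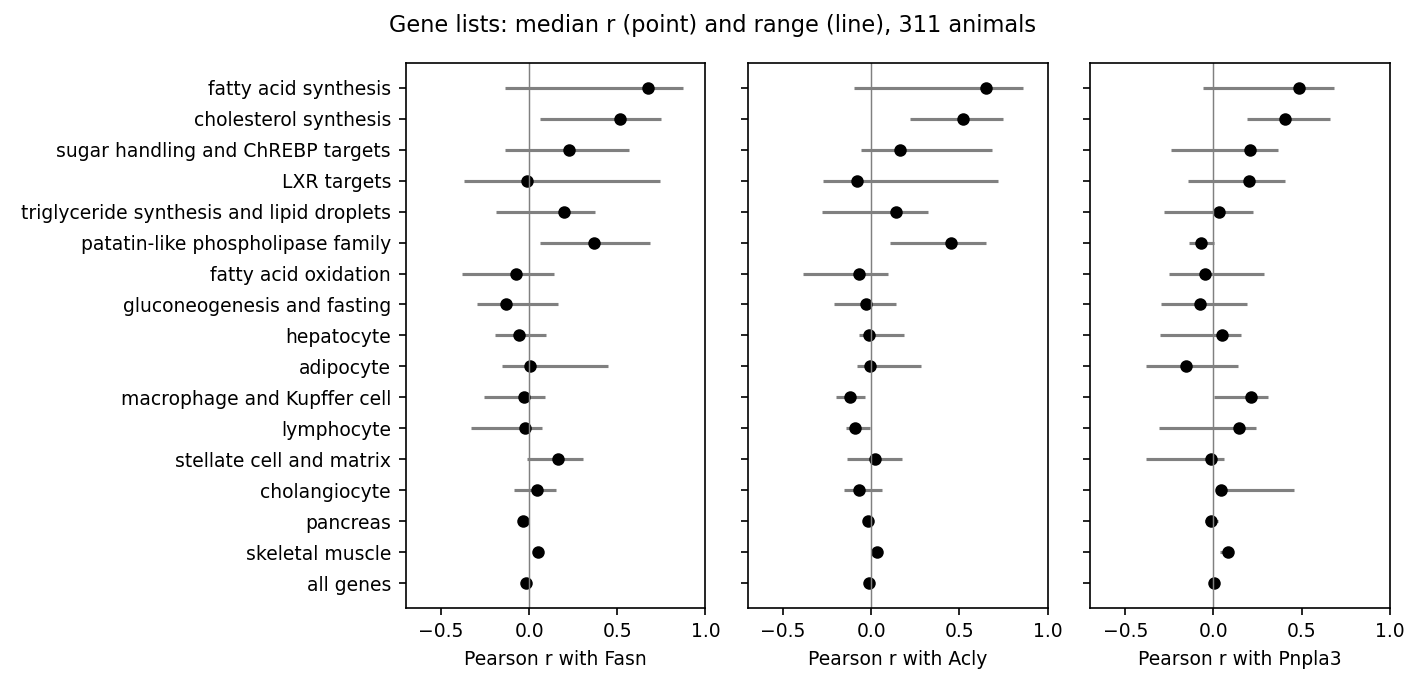
For each gene list the point is the median Pearson r of its measured genes with Fasn, Acly or Pnpla3 over 311 animals, and the line runs from the lowest to the highest r. Fatty acid and cholesterol synthesis lie farthest right, with medians of 0.677 and 0.517 for Fasn, and all genes together have medians near 0.

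Few transcripts opposed the 3 genes as closely as others followed them. For Fasn the lowest r was -0.560 for Scarb1, the HDL receptor SR-BI. Ung, a uracil-DNA glycosylase, had -0.558, Synpo, an actin-associated protein, -0.558, SLC41A3, a solute carrier, -0.523, Olig2, a transcription factor, -0.518, Pla2g12a, a secreted phospholipase A, -0.512, and Rnase4, a ribonuclease, -0.511. SLC41A3 was the lowest for Acly, at -0.543, followed by Pla2g12a at -0.534, Scarb1 at -0.513 and Synpo at -0.504. SLC41A3 and Pla2g12a differed between the sides in r with Fasn, at -0.327 and -0.349 among the Eif2s3y-high and -0.664 and -0.631 among the Eif2s3y-low animals. Scarb1 had -0.514 and -0.599.

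Most genes that opposed Pnpla3 were other ones. Mug1, a murinoglobulin protease inhibitor of plasma, had an r of -0.556, Ces3a, a carboxylesterase, -0.552, Clu, clusterin, -0.542, Dbh, dopamine beta-hydroxylase, -0.541, and Gde1, a glycerophosphodiesterase, -0.540. Derl3, of the endoplasmic reticulum, had -0.536, the complement component C8a -0.532, the NADPH oxidase Nox4 -0.529, the aldehyde oxidase Aox3 -0.528 and Mug2, another murinoglobulin gene, -0.508. Within the sides Nox4 and C8a had smaller relations, at -0.323 and -0.379 for Nox4 and -0.362 and -0.355 for C8a. Ces3a kept -0.548 among the Eif2s3y-high animals and had -0.270 among the Eif2s3y-low animals. With the side of the split removed, 0 genes had an r of at most -0.5 with Pnpla3, and with the Y-linked log ratios removed also 0. Eif2s3y itself had an r of -0.407 with Pnpla3, and Kdm5d, a Y-linked histone demethylase, had -0.407, against 0.123 and 0.119 with Fasn. For Gde1 the call rested on the probe: its most variable probe gave an r of 0.253 with Pnpla3 (r of Gde1 with Pnpla3).

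The sides of the split are separate animals, and the genes that followed Fasn, Acly and Pnpla3 were counted in each. For Fasn 104 genes (0.913%) reached an r of at least 0.5 among the Eif2s3y-high and 83 (0.729%) among the Eif2s3y-low animals. They shared 36, which is 34.6% of the former and 43.4% of the latter. Acly had 35 (0.307%) and 78 (0.685%), with 30 shared, or 85.7% and 38.5%. Pnpla3 had 24 (0.211%) and 55 (0.483%), with 18 shared, or 75.0% and 32.7%. At an r of at most -0.5 Fasn had 46 (0.404%) and 13 (0.114%), with 5 in both. Acly had 1 (0.00878%) and 11 (0.0966%), and Pnpla3 4 (0.0351%) and 6 (0.0527%), with 0 in both for each.

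All animals were also divided by F2 number, up to 186 and above. With Fasn, 57 genes (0.501%) and 58 genes (0.509%) reached an r of at least 0.5, and 13 (0.114%) and 10 (0.0878%) an r of at most -0.5. With Acly the counts were 49 (0.43%) and 49 (0.43%) at the upper and 5 (0.0439%) and 4 (0.0351%) at the lower threshold. Pnpla3 had 54 (0.474%) and 33 (0.29%), and 38 (0.334%) and 11 (0.0966%), so that its opposed genes were more numerous among animals with lower numbers.

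Among the Eif2s3y-high animals the genes opposing Fasn were led by Mug1, with an r of -0.644, the poly(A)-binding protein partner Paip2b, with -0.601, and Dbh, with -0.593. Paip2b had -0.268 among the Eif2s3y-low animals. There the lowest values with Fasn were those of SLC41A3, Pla2g12a and Ung, which had -0.631. Flvcr2, a membrane transporter, had -0.603 with Fasn in these animals and -0.360 in the others.

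Whether a gene's slope differed between the sides was tested with an interaction term in limma, over all genes. At an adjusted p under 0.05 the slope on Fasn differed for 1563 genes (13.7%), on Acly for 116 (1.02%) and on Pnpla3 for 578 (5.08%). The counts differed by F2 number. Among animals with F2 numbers up to 186 the limma counts were 1397, 234 and 214. Among those above 186 they were 7, 0 and 0, where an unadjusted p under 0.05 was reached by 1325, 807 and 1175 genes. A lost call alone does not tell whether a difference was lost, and differences above 186 are given below for several genes on Fasn. With 5 principal components removed the counts were 16, 13 and 5.

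Acly and Pnpla3 were themselves among the genes whose slope on Fasn was called. The slope of Acly on Fasn was 0.768 (SE 0.0320) in the Eif2s3y-low and 0.628 (0.0343) in the Eif2s3y-high animals, a difference of -0.140 (limma adjusted p = 0.0285). For Pnpla3 on Fasn the slopes were 0.948 (0.0474) and 0.753 (0.0508), a difference of -0.195 (limma adjusted p = 0.0422). The reverse slopes were not called: for Fasn the limma adjusted p was 0.826 on Acly and 0.956 on Pnpla3, for Pnpla3 on Acly it was 0.413 and for Acly on Pnpla3 0.615. For F2 numbers above 186 the limma adjusted p was 0.941 for Acly and 0.807 for Pnpla3, with differences of -0.0243 and -0.0855. For F2 numbers up to 186 the limma adjusted p was 0.00237 and 0.0212, with larger differences, of -0.262 for Acly and -0.302 for Pnpla3. The call of Pnpla3 was also lost without the 10 arrays of largest SD (slope difference of Pnpla3 on Fasn, adjusted p = 0.0688). It was lost as well with the split at 0 (adjusted p = 0.0733), with values limited to the 1st and 99th percentile (0.0566) and with 5 components removed (0.295). With 5 components removed that of Acly was lost too (slope difference of Acly on Fasn, adjusted p = 0.908).

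Some genes followed Fasn on the Eif2s3y-low side and opposed it on the Eif2s3y-high side, or had a slope near 0 on 1 side. Nudt7, a peroxisomal hydrolase of coenzyme A, had a slope of 0.280 (SE 0.0407) on Fasn in the Eif2s3y-low and -0.212 (0.0436) in the Eif2s3y-high animals (limma adjusted p = 5.40e-11). Its values ran from -0.807 to 0.0295 with a median of -0.226 on the former side and from -0.361 to 0.411 with a median of 0.141 on the latter. Slc22a27, a transporter of the SLC22 family, had slopes of 0.153 (0.0486) and 0.644 (0.0529), with limma adjusted p = 1.31e-07. Nudt7 and Slc22a27 were also called among animals with F2 numbers above 186 (limma adjusted p = 0.0368 for each).

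Cyp7b1, the oxysterol hydroxylase of bile acid synthesis, had slopes of -0.0658 (0.0507) and -0.578 (0.0545), and Ldah, a lipid droplet hydrolase, 0.0504 (0.0192) and -0.142 (0.0206). Hsd3b5, a steroid reductase of male mouse liver, had 0.0170 (0.135) and -1.24 (0.145), with limma adjusted p = 1.32e-06. Hsd3b5 varied unevenly, with an SD of 0.194 on the Eif2s3y-low and 0.656 on the Eif2s3y-high side and medians of -1.22 and 0.127. The cytochrome Cyp7b1 likewise had SDs of 0.0981 and 0.252. Above the F2 number 186 the slope differences were of a like size: -1.01 for Hsd3b5, against -1.26 over all animals, -0.405 for Cyp7b1, against -0.512, and -0.172 for Ldah, against -0.192. The limma adjusted p there was 0.0829 for Hsd3b5, and 0.0537 for Cyp7b1 and for Ldah. The part of the uneven spread in these slopes was not tested.

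**Figure D5:**
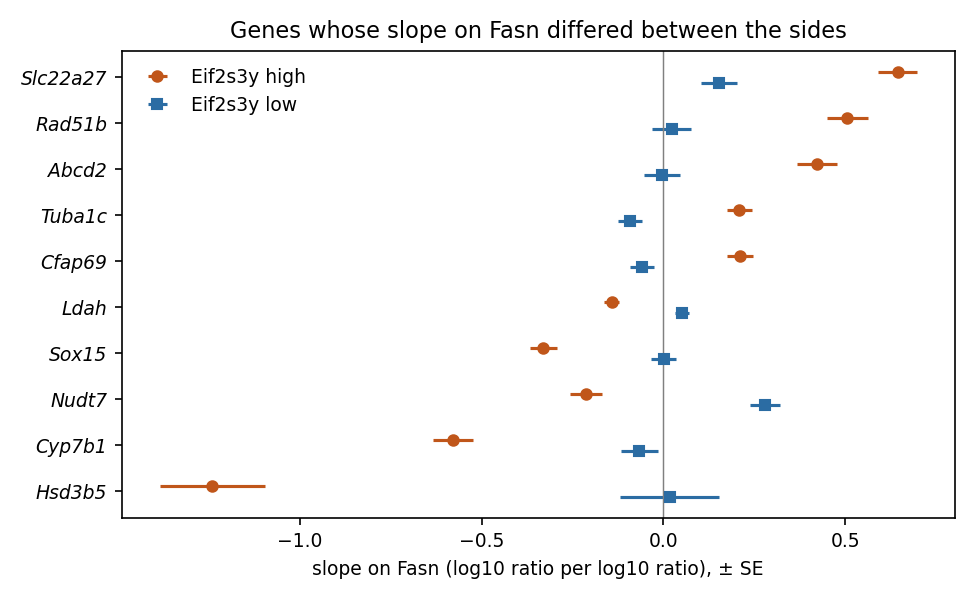
Slopes on Fasn (log10 ratio per log10 ratio, ± SE from limma) are shown for 10 genes whose slope differed between the sides, as orange circles for the Eif2s3y-high and blue squares for the Eif2s3y-low animals. Hsd3b5 has the steepest slope, -1.24 on the Eif2s3y-high side, and Nudt7 lies on opposite sides of 0.

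Acss2 differed in the same way for all 3 genes. Its slope on Fasn was 0.680 (SE 0.0453) in the Eif2s3y-low and 0.353 (0.0486) in the Eif2s3y-high animals, with limma adjusted p = 0.000152. On Acly the slopes of Acss2 were 0.769 and 0.460 and on Pnpla3 0.537 and 0.295, with limma adjusted p = 0.0414 and 0.0230. Scd1 had slopes of 0.806 (0.0475) and 0.559 (0.0510) on Fasn, with limma adjusted p = 0.00822. The difference of Acss2 on Fasn was -0.449 for F2 numbers up to 186 and -0.207 above (limma adjusted p = 0.000309 and 0.388), against -0.327 over all animals. For Scd1 it was -0.206 and -0.256 (limma adjusted p = 0.197 and 0.220), about the -0.247 over all animals, with no call in either set.

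Fasn, Acly and Acaca all lie on chromosome 11, and F2 animals inherit long stretches of a chromosome together, so the genes around them were read too. The 20 nearest measured genes had a median absolute r of 0.0754 with Fasn, 0.0722 with Acly and 0.0745 with Pnpla3, against 0.0892, 0.0725 and 0.0965 over all genes. Rfng and Slc16a3, beside Fasn, had -0.248 and 0.0406. Klhl11 and Cnp, beside Acly, had 0.113 and 0.0141, and Sult4a1 and Parvb, beside Pnpla3 on chromosome 15, had 0.203 and -0.0254. Between Acaca and Acly lay 141 measured genes with a median r of -0.0290 with Fasn, and between Acly and Fasn 225 with a median of -0.0204. The highest r was 0.291 for Arhgap23 in the former stretch and 0.492 for Prkca in the latter. In both, 0 genes reached 0.5, as 0.422% of all genes did, and nothing is read from this count. These 2 stretches were chosen after the values were seen, and so was Pcyt2, the 9th gene from Fasn and an enzyme of phosphatidylethanolamine synthesis, which had 0.450.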

How the data were processed

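The authors' deposited values are log ratios, read here as log10 ratios of an animal to the pool, and limited to -2 and 2; their base, direction and normalization are not given in the sources used here. Base and direction were inferred from the values: the slope of a gene's mean on its variance was -0.848, and a pool of all samples requires -1.15 for log10, -0.500 for natural log and -0.347 for log2, with the animal over the pool. The observed slope lay little nearer to log10 than to natural log, so folds rest on an uncertain base. No value was changed. Missing values made up 0.745%, and 1990 values were at a limit. Array SDs lay between 0.0658 and 0.206. The F2 number was read from the title, which differs from the source name in 1 sample. The number of arrays limits the precision, since arrays give no counts.

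Gene names came from the platform's probe table, updated through a RefSeq gene table (GRCm38.p6): 13645 probes named 1 gene, 48 several and 9695 none. Of 22863 probes measured on at least 95% of arrays, a gene was read from that with the fewest gaps (for ties, the first). Pearson and Spearman relations had two-sided permutation tests with 100000 resamples over animals, SDs had intervals from 1000 redraws of the animals, and slopes and their interaction with the side of the split were fitted with limma 3.58.1 in R 4.3.3, adjusted by Benjamini-Hochberg over all genes. The interaction fit was tested on simulated data, in which the noise of a gene was equal on both sides and independent between genes. It does not bear on calls for genes of uneven spread. Other steps ran in Python 3.11.15 with scipy 1.17.1, numpy 2.4.6, matplotlib 3.10.9 and pandas 2.3.3.

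The genes and lists were chosen with earlier results of these data known. Named are, for each of the 3 genes, the 10 highest and 10 lowest values of r over all arrays, the 5 highest and 5 lowest on each side, and the 5 smallest interaction p in each direction. Also named are every measured gene of the fatty acid synthesis and patatin-like lists, 3 highest and 2 lowest of each other list, 2 neighbours on each side, Eif2s3y, Kdm5d and Sqle. The text gives a part of these. Tables hold 1 value per animal, so p-values measure the spread between animals.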

Additional observations from a re-analysis of the deposited data

Results flagged for a closer look

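All results here concern slopes that differed between the Eif2s3y-high and Eif2s3y-low animals by limma's interaction test, at a Benjamini-Hochberg adjusted p under 0.05. Each difference is the Eif2s3y-high minus the Eif2s3y-low slope, in log10 ratio per log10 ratio. The numbers of genes that differed were 1563 for Fasn, 116 for Acly and 578 for Pnpla3. Among animals with F2 numbers above 186 these limma counts were 7, 0 and 0, with 1325, 807 and 1175 genes at an unadjusted p under 0.05.

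Of the 15 other measured fatty acid synthesis genes, 8 had a called difference of slope on Fasn, each with the steeper positive slope on the Eif2s3y-low side, where 13.7% of all genes were called. The other 7 were not called, among them Acaca, with 0.0288 (limma adjusted p = 0.630), and Me1, with -0.101 (0.156). On Acly and on Pnpla3 1 of 15 was called, Acss2. The called differences on Fasn were -0.140 for Acly, -0.195 for Pnpla3, -0.147 for Elovl6, -0.247 for Scd1, -0.199 for Thrsp, -0.144 for Acacb, -0.327 for Acss2 and -0.0729 for Slc25a1. For Acss2 the difference was -0.309 on Acly and -0.243 on Pnpla3. Among animals with F2 numbers above 186 none of the 8 was called on Fasn, with differences of -0.0243 for Acly, -0.0855 for Pnpla3, -0.112 for Elovl6, -0.256 for Scd1, -0.122 for Thrsp, -0.103 for Acacb, -0.207 for Acss2 and -0.0667 for Slc25a1 and limma adjusted p-values from 0.220 to 0.941. Up to 186 the calls of Scd1, Elovl6 and Slc25a1 were lost too (limma adjusted p = 0.197, 0.108 and 0.140).

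Among other genes the differences on Fasn were 0.491 for Slc22a27, 0.2999 for the tubulin gene Tuba1c, 0.483 for Rad51b, of DNA repair, 0.426 for Abcd2, a peroxisomal fatty acid transporter, and 0.270 for Cfap69. The sign of Tuba1c turned on its most variable probe (slope difference of Tuba1c on Fasn, -0.0757). Above the F2 number 186 the differences were 0.207 for Tuba1c, 0.278 for Rad51b, 0.348 for Abcd2 and 0.239 for Cfap69, with limma adjusted p-values of 0.140, 0.271, 0.119 and 0.119, and Rad51b had 0.681 up to 186. Negative differences on Fasn were -0.492 for Nudt7, -0.512 for Cyp7b1, -0.192 for Ldah, -0.332 for Sox15 and -1.26 for Hsd3b5. Above 186 Sox15 had -0.288 (limma adjusted p = 0.0537). Sox15 had an SD of 0.167 on the Eif2s3y-high and 0.0573 on the Eif2s3y-low side, and Rad51b 0.250 and 0.103.

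On Acly the differences were 0.330 for Tuba1c, 0.275 for A4gnt, 0.154 for Olfr315, 0.143 for the signalling adaptor Grb2 and 0.172 for INTS2. With the most variable probe the sign turned for 2 of these (slope difference of Tuba1c on Acly, -0.0681, and slope difference of Grb2 on Acly, -0.463). Negative differences on Acly were -0.404 for Nudt7, -0.170 for Ldah, -0.128 for the claudin Cldn14, -0.107 for Cox5a, a subunit of cytochrome oxidase, and -0.206 for Dot1l, a histone methyltransferase.

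On Pnpla3 the differences were 0.223 for Tuba1c, 0.372 for Abcd2, 0.129 for the lysosomal protease Ctsa, 0.244 for the collectin Colec10 and 0.235 for Ski. That of Tuba1c again turned with its most variable probe (slope difference of Tuba1c on Pnpla3, -0.120). Negative differences on Pnpla3 were -0.363 for Nudt7, -0.415 for Ybx2, -0.238 for Tmc3, -0.355 for Cplx3 and -0.132 for the hyaluronan synthase Has2.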

How the results depend on the processing

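The r of each pair of Fasn, Acly and Pnpla3 kept its sign and its permutation call under all 15 alternatives, over all animals and within each side. Several alternatives could not change it. Each gene had 1 probe with no missing value, so the choices of probe left its values as they were. Moving the split could not change the r over all animals, and the split at the median gave the same sides. Removing the side could not change the r within a side. Over all animals the r ran from 0.857 to 0.882 for Fasn and Acly, from 0.656 to 0.828 for Fasn and Pnpla3 and from 0.602 to 0.814 for Acly and Pnpla3. With 5 principal components removed the SD was 0.226 for Fasn and 0.249 for Pnpla3, and with the side removed it was 0.263 for Pnpla3. At a threshold of 0.4, positive counts for Fasn, Acly and Pnpla3 were 157, 101 and 117 and negative counts 49, 12 and 143. On probes with a value on every array, which leaves 6560 genes, the negative counts were 2, 0 and 7. With F2 numbers up to 186 they were 13 for Fasn and 38 for Pnpla3. For Pnpla3 the negative count was 0 with the Y-linked values removed, 0 with the side removed, 3 with 5 components removed and 19 by Spearman. Genes whose slope differed numbered, for Acly and Pnpla3, 234 and 214 with F2 numbers up to 186, and for Fasn, Acly and Pnpla3 7, 0 and 0 above 186 and 16, 13 and 5 with 5 components removed. For Acly they numbered 77 without the 10 arrays of largest SD and 34 without the 11 arrays of pancreas or muscle signal. The cause was not tested. With the most variable probe per gene, signs turned for 5 named values: r of Gde1 with Pnpla3 (0.253), slope difference of Tuba1c on Fasn (-0.0757), slope difference of Tuba1c on Acly (-0.0681), slope difference of Tuba1c on Pnpla3 (-0.120) and slope difference of Grb2 on Acly (-0.463). Of 1083 values of the 86 named r, 994 moved by less than the 95% interval of r, 88 moved more and 1 turned. No paired analysis was possible because the labels give 1 group. Each of the 3 genes had 1 probe, so a fault of a probe could not be seen.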

Other observations

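Of 9528 probes with no gene name, 62 (0.651%) had an r of at least 0.5 with Fasn, 40 (0.42%) with Acly and 22 (0.231%) with Pnpla3, beside 0.422%, 0.386% and 0.316% of the named genes. An r of at most -0.5 was found for 3 (0.0315%), 0 and 5 (0.0525%), beside 0.0615%, 0.0351% and 0.0966% of the named genes. The probe 10024404105 was the highest of the unnamed probes for all 3 genes, with an r of 0.797 with Fasn, 0.845 with Acly and 0.781 with Pnpla3. That probe is unnamed in the table used here.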
